A study of Homo sapiens with 12 samples.

Results

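The genes described here are 49 genes of DNA replication and repair, taken as a fixed list of symbols that covers origin licensing, the replicative helicase, the sliding clamp and its loader, the DNA polymerases, nucleotide supply, repair and the replication checkpoint. A probe belonged to a gene when its RefSeq accession mapped to that symbol in the human RefSeq gene table; this rule uses no measured value, although the list was drawn up with earlier results of these data known. In this way 48 of the 49 genes were found with 61 probes, out of 16557 genes named among the 41000 gene probes of the array, and all 61 probes passed the filter on dim probes. BRCA1 is the gene for which the table matched no probe, and it was not analysed here.

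Expression was measured on 12 arrays of the inducible clone H358/Tet-On/SRSF2. H358 is a line derived from a human lung adenocarcinoma, and in this clone a Tet-responsive promoter drives SRSF2, a splicing factor of the SR protein family. The control condition (6 arrays) has the treatment label none, and its source label also mentions a 24 h induction; whether doxycycline was added to it is not given in the sources used here. The SRSF2 condition (6 arrays) was induced for 24 h with 1 µg/mL doxycycline. Everything below rests on 1 clone, so no parental line or clone without the transgene separates SRSF2 from doxycycline. The study's supplement lists arrays in pairs per labelling, which leaves 3 labellings behind the 6 arrays of each condition. The p-values measure the spread between arrays, which may be technical, and an exact test of 3 labellings against 3 could not go below p = 0.1.

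The probe of SRSF2 itself went against the labels. All levels below are log2 signals from which the 75th percentile of the same array was subtracted. On this scale SRSF2 read 3.92 ± 0.10 in the control condition against 2.47 ± 0.10 for the arrays with the label SRSF2 over-expression (SD, n = 6 each), a difference of -1.46 (SE 0.06, limma adjusted p = 1.682e-09). Whether the transgene carries the sequence of this probe is not given in the sources used here. All directions are therefore those of the arrays as labelled. Of 10 lung epithelial marker genes, 9 passed the filter on dim probes, while no fibroblast marker did (0 of 8 probes). Of the leukocyte markers 3 of 7 probes passed, with PTPRC well above background on no array, and of the endothelial markers 2 of 7 passed, with CDH5 on no array. The share of spots well above background was 54.2% to 67.8% on the control arrays and 55.2% to 68.0% on the others. No spot was saturated, and the percentile used for scaling ranged from 795.6 to 1100 signal units.

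DNA replication begins when the origin recognition complex, CDC6 and CDT1 load the ring of MCM2 to MCM7 onto DNA, and CDC45 and the GINS complex then turn that ring into an active helicase. Polymerase alpha with its primase starts each new strand, polymerases epsilon and delta extend it, PCNA holds them on the template, and FEN1 and LIG1 join the lagging-strand fragments. Many of these genes are transcribed as cells enter S phase, under E2F factors that bind short sites close to the start of the gene. In bulk RNA, fewer cells that contain a transcript and less of the transcript per cell cannot be told apart.

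Because E2F sites are the best known shared feature of such promoters, the RefSeq promoters of build GRCh38.p14 (from 250 bases before to 50 bases after each gene start) were searched for the letters TTTGGCGC, TTTCCCGC, TTTCGCGC and TTTGCCGC on both strands. These 4 words can overlap one another on opposite strands. Promoters were listed for 43 of the 49 genes, and at least 1 word was present in 22 of these genes (51.2%), against 3.99% of 27305 genes with a promoter in the table. Of genes whose brightest probe rose, 5 of 12 had such a word; of genes whose brightest probe fell, 11 of 19; and of genes with no call, 6 of 11. The sequences below are shown because the same kind of site, in capitals, lies within the searched window of genes that moved in opposite directions. The marked letters lie upstream of the start for MCM6 and GINS2, across it for MCM3, GINS3 and POLE2, and just downstream of it for MCM2. Each is written 5′ to 3′ on the strand of the gene.
MCM6 (higher), chr2:135876514-135876603, minus strand: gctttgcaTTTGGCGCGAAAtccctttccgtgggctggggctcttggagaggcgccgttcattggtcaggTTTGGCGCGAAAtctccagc
MCM2 (lower), chr3:127598404-127598433, plus strand: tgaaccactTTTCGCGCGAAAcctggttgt
MCM3 (lower), chr6:52284728-52284757, minus strand: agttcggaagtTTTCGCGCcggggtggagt
GINS3 (higher), chr16:58392455-58392484, plus strand: cgtccccgggcGCGGGAAAcgagtttcaat
GINS2 (lower), chr16:85688967-85688996, minus strand: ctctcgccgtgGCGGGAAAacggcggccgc
POLE2 (lower), chr14:49688201-49688230, minus strand: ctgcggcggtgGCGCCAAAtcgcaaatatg

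The MCM6 stretch holds the 12 letters of the overlapping words at 2 places, and the MCM2 stretch holds overlapping words once, in a palindrome. GINS2 and GINS3 share the same 8 letters on the same strand relative to their genes. A further word, CCAAT, was present in 59.3% of the member promoters and in 34.6% of all promoters. A match of letters is a description and no evidence that a factor binds there.

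Of the 61 probes, 18 were higher and 27 were lower in the SRSF2 condition at an adjusted p of at most 0.05 (limma, Benjamini-Hochberg over 24336 probes), and 16 were not called. The share of lower probes was 44.3%, beside 28.0% of all probes tested. The share of higher probes, 29.5%, was that of all probes tested, 29.7%. Taken in either direction, 73.8% of the replication and repair probes were called, beside 57.7% of all probes, so that a call by itself was common on these arrays. Counted by the brightest probe of each gene, 13 genes rose, 22 fell and 13 were not called. The median log2 difference over the 48 genes was -0.14, which turned to 0.07 under the spike-in scaling described below. Over all 11595 named genes tested the median was -0.0039. Both scalings shift all probes of an array alike, so relative to the median of all probes the 48 genes lay at -0.15 under either. The median size of the difference, whatever its sign, was 0.36 for the 48 genes and 0.29 for all named genes. The arrays of the conditions did not overlap for 15 probes that rose and 18 that fell, beside 21.2% and 18.9% of all probes. Each of the 3 slides holds 2 arrays of either condition. All 45 called probes had 1 sign on every slide, but they were picked on these same arrays.

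**Figure D1:**
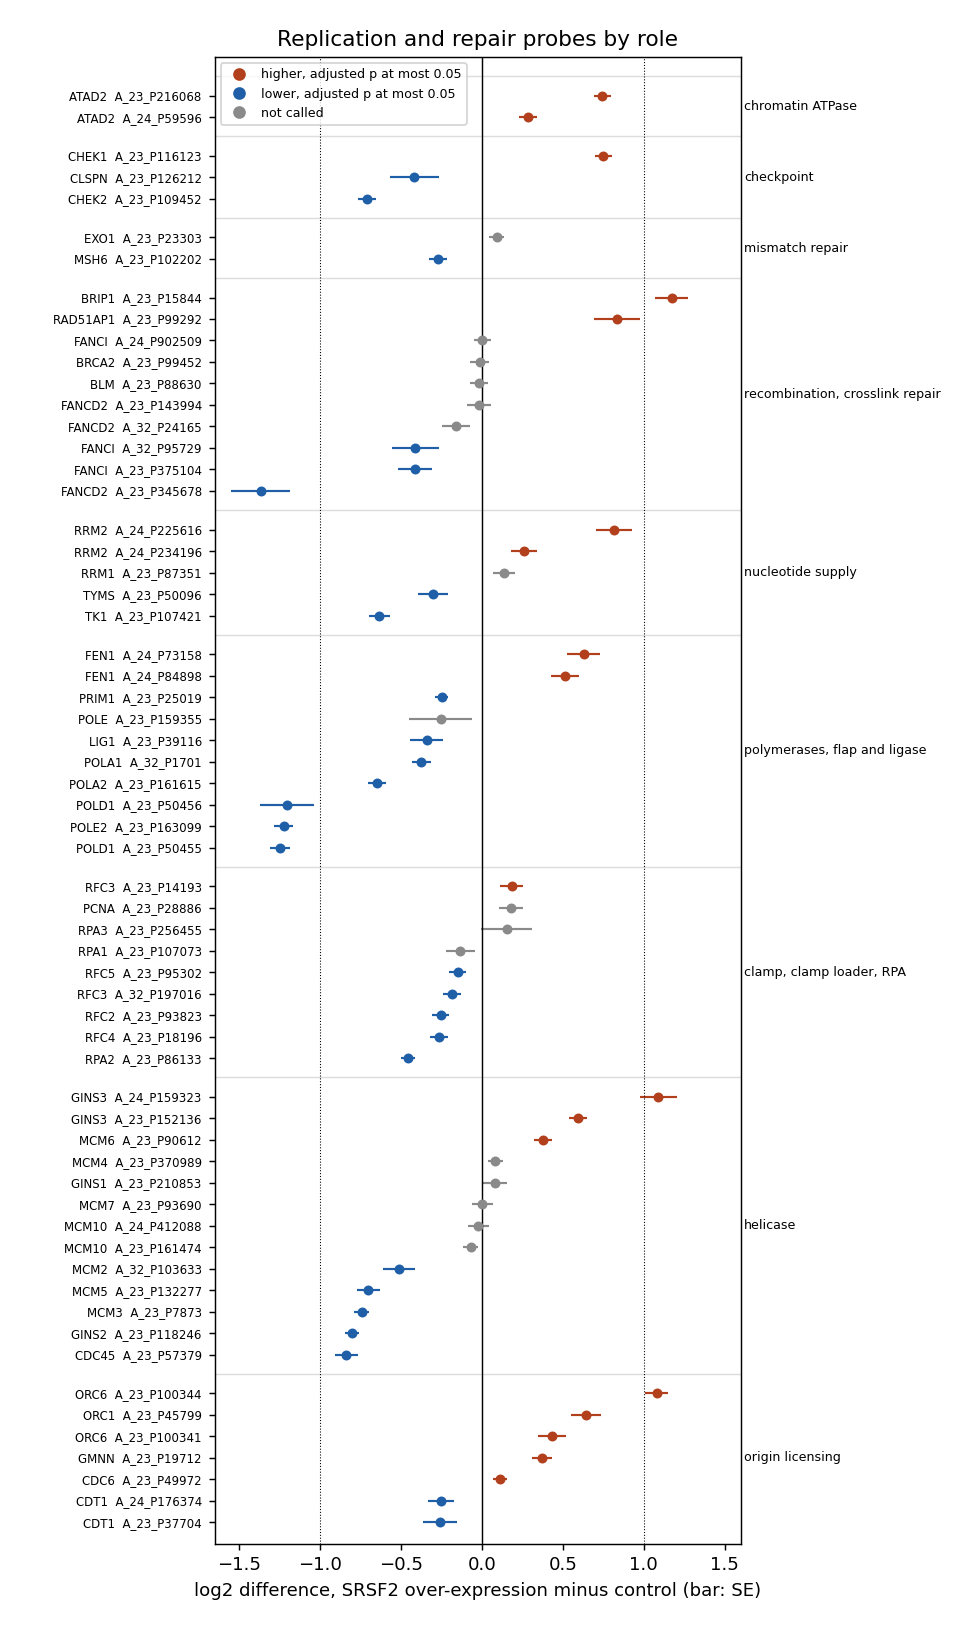
Log2 difference between the SRSF2 condition and the control condition for each of the 61 probes, grouped by role, with the standard error of the fit as bars and dotted lines at a 2-fold change. Licensing genes lie mostly to the right of 0 and polymerase genes mostly to the left, while the helicase and repair genes spread to both sides.

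These differences are relative to the 75th percentile of each array. Scaling on 7 spike-in control probes moved the median over all probes by 0.21 towards higher values in the SRSF2 condition, and then 13 of the 61 replication and repair probes were higher and 6 lower, while 20.7% of all probes were higher and 6.16% lower. Higher calls made up 40.0% of the members' calls by the percentile and 68.4% by the spike-ins, beside 51.5% and 77.1% of the calls over all probes. Of the 45 called probes, 19 kept their call under this scaling, 24 kept their sign without a call, and 2 changed sign (RFC5 and RFC3 A_32_P197016).

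At 2-fold or more, 3 probes were up-regulated (ORC6, GINS3 and BRIP1) and 4 were down-regulated (POLD1 with 2 probes, POLE2 and FANCD2). The FANCD2 probe passed the filter only through the control arrays, and its fold is taken against signals mostly not above background; the other 60 probes passed in both conditions. All probes tested gave 3.69% and 3.32% in these directions, and 3 and 4 of 61 lie near those shares. The arrays of the conditions did not overlap for any of the 7 probes, which were picked by fold and adjusted p on these same arrays.

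**Figure D2:**
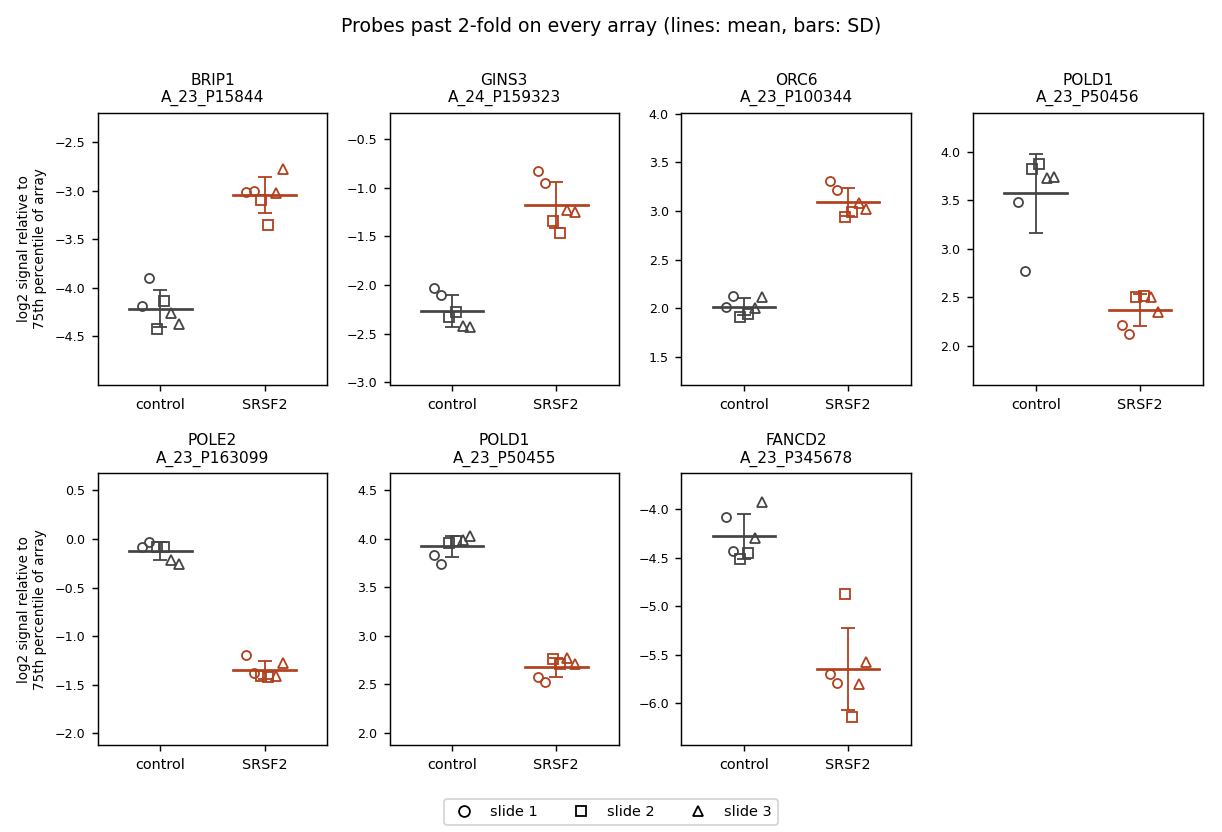
Scaled log2 signal of the 7 probes past 2-fold on each control array and each array of the SRSF2 condition (marked SRSF2), with the mean as a line, the SD as a bar and the slide as the symbol. In each panel the arrays of the conditions lie apart, and 1 control array of slide 1 sits below the other control arrays for POLD1 A_23_P50456.

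Origin licensing genes mostly rose, with 5 of 7 probes higher (71.4%) and 2 lower (28.6%), beside 29.7% and 28.0% of all probes. ORC6, a subunit of the origin recognition complex, changed most. Its probe A_23_P100344 read 1.91, 2.00 and 2.13 (lowest, median and highest of the control arrays) and 2.94, 3.05 and 3.31 in the SRSF2 condition. The lowest array of the SRSF2 condition was above the highest control array, and the difference was 1.08 (SE 0.07, adjusted p = 6.103e-08), a 2.11-fold rise. The other ORC6 probe rose by 0.43 (SE 0.09, adjusted p = 9.623e-04).

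ORC1, the large ATP-binding subunit of the same complex, read -1.14, -1.07 and -0.85 in the control condition and -0.63, -0.42 and -0.07 in the SRSF2 condition. These values did not overlap, and the difference was 0.64 (SE 0.09, adjusted p = 6.104e-05). GMNN encodes geminin, which blocks CDT1 outside the licensing window, and it rose by 0.37 (SE 0.06, adjusted p = 1.935e-04). CDC6, the ATPase that helps to load the MCM ring, rose by 0.11 (SE 0.04, adjusted p = 0.0368). Its adjusted p was 0.194 without slide 2 and 0.0891 without slide 3.

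CDT1, the loading factor that geminin inhibits, was the licensing gene that fell. Its brighter probe A_23_P37704 read 4.56, 4.99 and 5.04 in the control condition and 4.41, 4.65 and 4.80 in the SRSF2 condition, and these ranges overlapped. The differences of its probes were -0.26 (SE 0.10, adjusted p = 0.0476) and -0.25 (SE 0.08, adjusted p = 0.0174). The call of A_23_P37704 was lost without slide 2 (adjusted p = 0.0779), and both calls were lost without slide 3 (0.269 for A_23_P37704 and 0.131 for A_24_P176374). Both calls were also lost under spike-in scaling. Of the licensing genes that rose, GMNN and CDC6 lost their calls there too (adjusted p = 0.0552 and 0.286), while ORC1 and both ORC6 probes kept theirs.

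The helicase genes moved in opposite directions within 1 complex. Of 13 probes, 5 were lower (38.5%), 3 were higher (23.1%) and 5 were not called. All probes tested gave 28.0% lower and 29.7% higher. Within the MCM ring, MCM3 fell by 0.74 (SE 0.05, adjusted p = 4.355e-08), MCM5 fell by 0.70 (SE 0.07, adjusted p = 3.437e-06) and MCM2 fell by 0.51 (SE 0.10, adjusted p = 7.684e-04). MCM6, by contrast, rose by 0.38 (SE 0.06, adjusted p = 7.774e-05), and its 6 control arrays lay between 4.79 and 4.83 while the 6 arrays of the SRSF2 condition lay between 5.08 and 5.37. MCM4 differed by 0.08 (SE 0.05, adjusted p = 0.154) and MCM7 by 0.0031 (SE 0.07, adjusted p = 0.972, with 1 array of the SRSF2 condition left out as an outlier spot). Without control replicate 2, the MCM4 difference was 0.11 with an adjusted p of 0.0368. The conditions did not overlap for MCM2, MCM3, MCM5 and MCM6.

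CDC45, which joins the MCM ring to form the active helicase, read 4.12, 4.25 and 4.45 in the control condition and 3.27, 3.44 and 3.56 in the SRSF2 condition. Every array of the SRSF2 condition was below every control array, and CDC45 fell by 0.84 (SE 0.07, adjusted p = 6.275e-07). The drop was present on each slide, at -1.002, -0.81 and -0.70. MCM10, which helps to activate the helicase, was not called by either probe (adjusted p = 0.216 and 0.805).

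The GINS complex has 4 subunits, of which GINS1, GINS2 and GINS3 are among the 49 genes. GINS3 rose by both of its probes. Probe A_23_P152136 read 2.59, 2.69 and 2.77 in the control condition and 3.17, 3.29 and 3.42 in the SRSF2 condition, a difference of 0.59 (SE 0.06, adjusted p = 1.472e-06). Probe A_24_P159323 read -2.43, -2.30 and -2.03 against -1.46, -1.24 and -0.83, a difference of 1.09 (SE 0.11, adjusted p = 3.56e-06) that was 0.53 after normexp background correction.

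GINS2 moved the other way, from 4.74 ± 0.04 to 3.94 ± 0.05 (SD, n = 6 each), and fell by 0.80 (SE 0.04, adjusted p = 8.91e-09). GINS1 differed by 0.08 (SE 0.07, adjusted p = 0.366). The fourth subunit, GINS4, was in the fixed list of other replication genes, and its brighter probe fell by 0.67 (SE 0.12, adjusted p = 4.288e-04), while the other was not called (-0.12, SE 0.11, adjusted p = 0.396). Under spike-in scaling, CDC45, GINS2, MCM6 and both GINS3 probes kept their calls, while MCM2, MCM3 and MCM5 kept their sign with adjusted p-values of 0.346, 0.0738 and 0.0963.

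**Figure D3:**
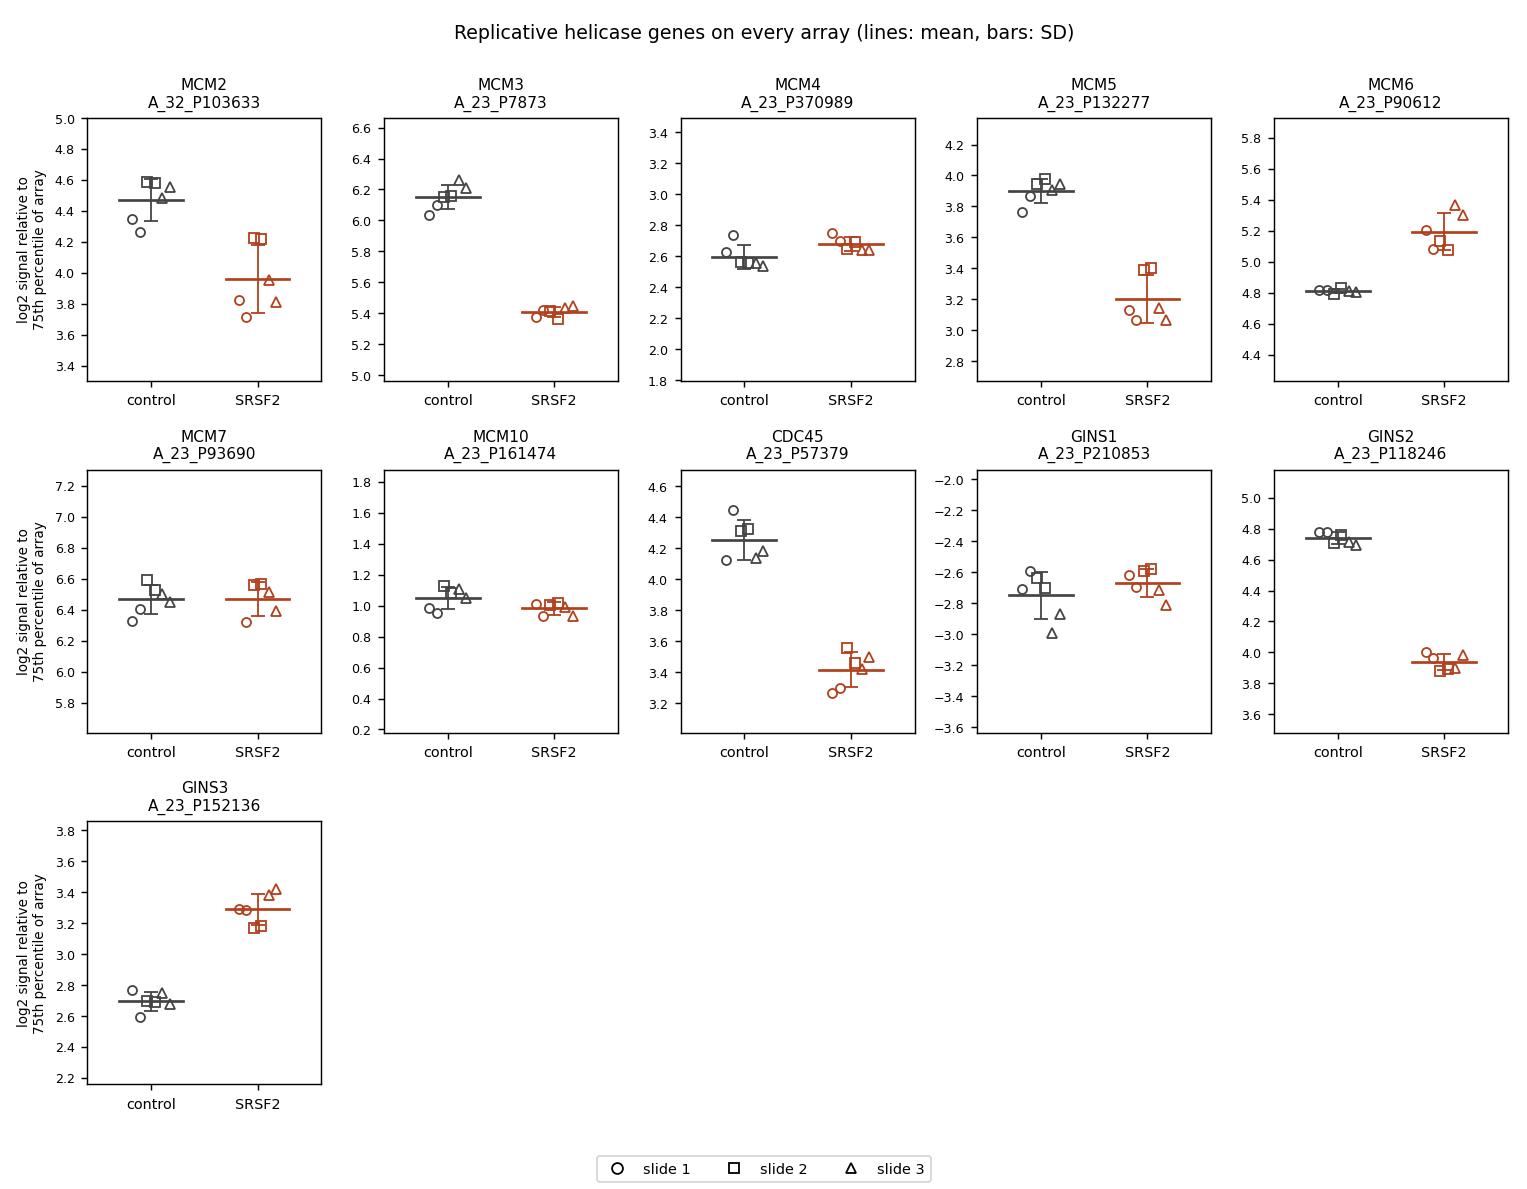
Scaled log2 signal of the brightest probe of each helicase gene on each control array and each array of the SRSF2 condition (marked SRSF2), with the mean as a line, the SD as a bar and the slide as the symbol. All panels span the same log2 range; MCM2, MCM3, MCM5, CDC45 and GINS2 lie lower in the SRSF2 condition, MCM6 and GINS3 lie higher, and the ranges of MCM4, MCM7, MCM10 and GINS1 overlap.

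Differences of the clamp, its loader and the single-strand binding protein were small. Of 9 probes, 5 were lower (55.6%), 1 was higher (11.1%) and 3 were not called. All probes tested gave 28.0% lower and 29.7% higher. RPA2, the middle subunit of replication protein A, read 3.63, 3.69 and 3.78 in the control condition and 3.201, 3.25 and 3.30 in the SRSF2 condition. These ranges lay apart, and RPA2 fell by 0.46 (SE 0.04, adjusted p = 1.34e-06). Under spike-in scaling the RPA2 difference was -0.25 without a call (adjusted p = 0.409). The other subunits of replication protein A were not called, with RPA1 at -0.13 (SE 0.09, adjusted p = 0.221) and RPA3 at 0.15 (SE 0.16, adjusted p = 0.438). With the replicate number as a block, RPA1 had an adjusted p of 0.0377.

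Of the clamp loader subunits, RFC2 fell by 0.25 (SE 0.05, adjusted p = 0.00118) and RFC4 fell by 0.26 (SE 0.06, adjusted p = 0.0015, 5 arrays in the SRSF2 condition). Both kept a negative sign without a call under spike-in scaling (adjusted p = 0.903 and 0.757). RFC5 was lower at -0.15 (SE 0.05, adjusted p = 0.0298), with the sign turned under spike-in scaling (0.06, adjusted p = 0.865). Its adjusted p was 0.113 without slide 1, 0.156 without slide 2 and 0.0551 without control replicate 2.

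RFC3 was the only gene with calls in both directions. Probe A_23_P14193 read 0.15, 0.20 and 0.27 in the control condition and 0.25, 0.30 and 0.61 in the SRSF2 condition, a difference of 0.18 (SE 0.07, adjusted p = 0.0421). Probe A_32_P197016 read -1.94, -1.79 and -1.70 against -2.08, -1.96 and -1.85, a difference of -0.18 (SE 0.06, adjusted p = 0.0148) that turned to 0.03 under spike-in scaling. The ranges of the conditions overlapped for either probe. The higher call was lost without slide 1 (adjusted p = 0.16), without slide 3 (0.117), without control replicate 2 (0.059) and under spike-in scaling (0.178). The lower call was lost without slide 2 (0.214) and without slide 3 (0.0813).

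PCNA, the sliding clamp, lay just outside the threshold at 0.18 (SE 0.07, adjusted p = 0.0511). It was called with the replicate number as a block (adjusted p = 0.0103), without slide 2 (0.00656) and without control replicate 2 (0.0479). By slide, its difference was 0.24, 0.06 and 0.25.

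Polymerase genes mostly fell, with 7 of 10 probes lower, 2 higher and 1 not called, beside 28.0% lower and 29.7% higher among all probes. POLD1, the catalytic subunit of polymerase delta, fell by either probe. Probe A_23_P50455 read 3.74, 3.97 and 4.03 in the control condition and 2.52, 2.71 and 2.77 in the SRSF2 condition. No array overlapped, and the difference was -1.25 (SE 0.06, adjusted p = 7.68e-09), a 2.37-fold decrease. Probe A_23_P50456 read 2.77, 3.73 and 3.87 against 2.13, 2.42 and 2.51, a difference of -1.20 (SE 0.17, adjusted p = 4.446e-05). Its lowest control value was that of control replicate 2, without which the difference was -1.36.

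POLE2, the second subunit of polymerase epsilon, read -0.26, -0.08 and -0.03 in the control condition and -1.42, -1.39 and -1.20 in the SRSF2 condition. POLE2 fell by 1.22 (SE 0.06, adjusted p = 3.973e-09), which is 2.33-fold, with -1.23, -1.33 and -1.11 on the slides. POLE, the catalytic subunit of the same enzyme, was not called at -0.25 (SE 0.19, adjusted p = 0.285). Its control arrays spread from -3.35 to -2.03.

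Of polymerase alpha and its primase, the subunits POLA1, POLA2 and PRIM1 fell. POLA2 fell by 0.65 (SE 0.06, adjusted p = 8.348e-07), POLA1 fell by 0.37 (SE 0.06, adjusted p = 1.267e-04) and PRIM1 fell by 0.25 (SE 0.04, adjusted p = 1.566e-04). The conditions did not overlap for any of the 3. LIG1, the ligase that seals lagging-strand fragments, fell by 0.34 (SE 0.10, adjusted p = 0.0125), and the call was lost without slide 2 (adjusted p = 0.0812) and without slide 3 (0.198).

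FEN1, the nuclease that trims the flaps of those fragments, was the exception. Probe A_24_P73158 read 2.03, 2.42 and 2.52 in the control condition and 2.79, 2.96 and 3.22 in the SRSF2 condition, without overlap. It rose by 0.63 (SE 0.10, adjusted p = 1.52e-04) and the other FEN1 probe by 0.51 (SE 0.08, adjusted p = 1.844e-04). Under spike-in scaling the calls of POLD1, POLE2 and FEN1 were kept. POLA2, POLA1, PRIM1 and LIG1 kept a negative sign without a call, with adjusted p-values of 0.142, 0.611, 0.914 and 0.709.

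Other subunits of the same polymerases came from the list of further replication genes. POLD2 fell by 0.33 (SE 0.04, adjusted p = 1.72e-05) and POLD3 fell by 0.55 and 0.88 with its probes. POLD4, the smallest delta subunit, was not called at 0.20 and 0.18 (adjusted p = 0.0528 and 0.0912), and the primase subunit PRIM2 rose with 1 of its 2 probes, as given below. POLE3 rose by 0.45 (SE 0.06, adjusted p = 3.165e-05) and POLE4 by 0.34 and 0.30, so that subunits of polymerase epsilon were called in both directions. POLE3 and POLE4 are the small histone-fold subunits of that enzyme.

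**Figure D4:**
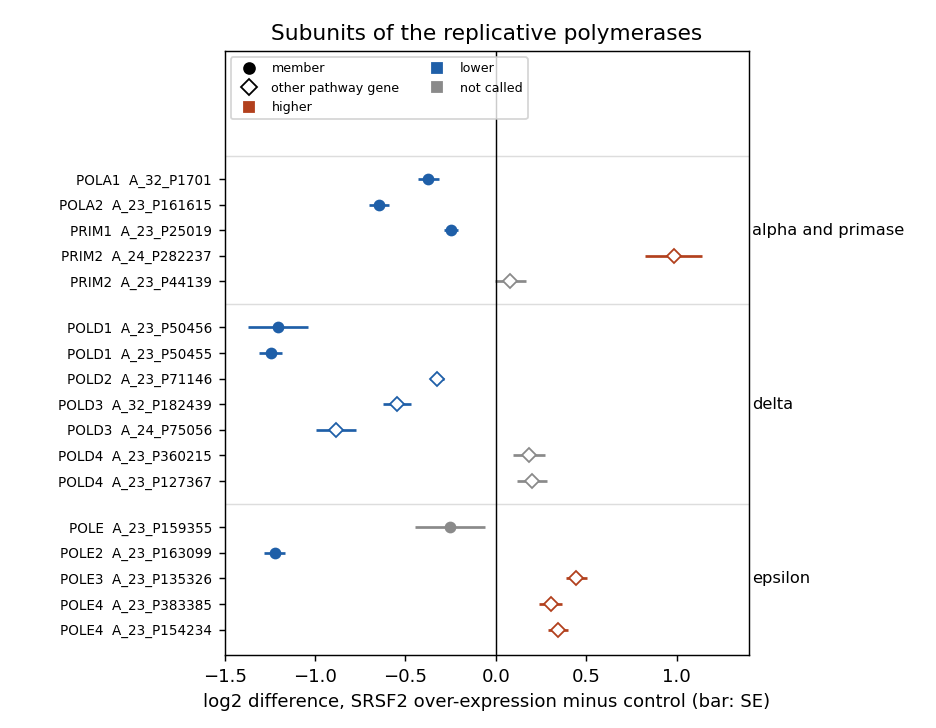
Log2 difference between the SRSF2 condition and the control condition, with the standard error as bars, for each probe of the subunits of polymerases alpha, delta and epsilon; filled circles are among the 49 genes, open diamonds are other pathway genes. POLD1, POLD2 and POLD3 lie left of 0, as do POLA1, POLA2, PRIM1 and POLE2, while POLE3, POLE4, PRIM2 and the uncalled POLD4 lie right of 0.

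Of the nucleotide supply genes, TK1 and TYMS fell, RRM2 rose with both of its probes and RRM1 was not called. TK1, the thymidine kinase of the salvage pathway, read 7.53, 7.58 and 7.82 in the control condition and 6.81, 7.00 and 7.09 in the SRSF2 condition. It fell by 0.63 (SE 0.07, adjusted p = 3.234e-06) without overlap. TYMS, which makes thymidylate de novo, fell by 0.30 (SE 0.09, adjusted p = 0.0138), with an adjusted p of 0.123 without slide 1 and 0.0933 without slide 2.

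RRM2, the regulated subunit of ribonucleotide reductase, rose. Its brighter probe A_24_P234196 read 1.81, 1.91 and 2.03 in the control condition and 1.92, 2.23 and 2.38 in the SRSF2 condition, a difference of 0.26 (SE 0.08, adjusted p = 0.0159; 0.153 without slide 3). Its other probe A_24_P225616 read 1.03, 1.08 and 1.35 against 1.66, 1.95 and 2.26, without overlap, and rose by 0.81 (SE 0.11, adjusted p = 3.821e-05). RRM1, the large subunit, was not called at 0.14 (SE 0.07, adjusted p = 0.097). With the replicate number as a block its adjusted p was 0.0148. Under spike-in scaling TK1 and TYMS kept a negative sign without a call.

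Among the genes of recombination and crosslink repair, 2 of 10 probes were higher, 3 were lower and 5 were not called. Of all probes tested, 29.7% were higher, 28.0% lower and 57.7% called, so these counts lay near or below the array-wide shares. BRIP1, a helicase that works with BRCA1, read -4.43, -4.22 and -3.89 in the control condition and -3.36, -3.01 and -2.77 in the SRSF2 condition. The conditions did not overlap, and the rise was 1.17 (SE 0.10, adjusted p = 9.218e-07). This probe was dim and passed background on 5 of the 6 control arrays and on all 6 others, and its difference was 0.41 after normexp background correction. RAD51AP1, which stimulates strand pairing in homologous recombination, rose by 0.84 (SE 0.14, adjusted p = 2.386e-04), from -0.80 ± 0.14 to 0.03 ± 0.35 (SD, n = 6 each).

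FANCD2 and FANCI form the pair that marks crosslinked DNA, and their probes disagreed. FANCD2 A_23_P345678 read -4.51, -4.36 and -3.92 in the control condition and -6.14, -5.75 and -4.88 in the SRSF2 condition, a difference of -1.37 (SE 0.18, adjusted p = 2.941e-05). Of the control arrays 5 measured it well above background, but only 1 array of the SRSF2 condition did. After normexp correction the difference was -0.29. The other FANCD2 probes were brighter and not called, at -0.02 (SE 0.08, adjusted p = 0.859) and -0.16 (SE 0.09, adjusted p = 0.129; 0.043 with the replicate number as a block).

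FANCI A_32_P95729 read 1.87, 2.69 and 2.81 in the control condition and 1.93, 2.19 and 2.29 in the SRSF2 condition, with overlap through control replicate 2. FANCI fell by 0.41 with this probe (SE 0.15, adjusted p = 0.0285) and with probe A_23_P375104 (SE 0.11, adjusted p = 0.00491), and differed by 0.0024 with the remaining one (adjusted p = 0.973). Without slide 2 the adjusted p-values of the called FANCI probes were 0.12 and 0.059, and without slide 3 that of A_32_P95729 was 0.198. BRCA2, a mediator of homologous recombination, was not called (-0.01, SE 0.06, adjusted p = 0.862), nor was BLM, the Bloom syndrome helicase (-0.02, SE 0.05, adjusted p = 0.798). Under spike-in scaling BRIP1 and RAD51AP1 kept their calls, and both FANCI probes lost theirs with the sign kept.

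MSH6, a mismatch recognition subunit, read 4.81, 4.83 and 4.95 in the control condition and 4.46, 4.56 and 4.71 in the SRSF2 condition. It fell by 0.27 (SE 0.06, adjusted p = 0.00116) without overlap, and its adjusted p was 0.86 under spike-in scaling. EXO1, the exonuclease that acts after mismatch recognition and in end resection, was not called (0.09, SE 0.05, adjusted p = 0.113).

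The checkpoint kinases moved in opposite directions. CHEK1, the kinase downstream of ATR, read 3.04, 3.08 and 3.201 in the control condition and 3.73, 3.87 and 3.95 in the SRSF2 condition. It rose by 0.75 (SE 0.05, adjusted p = 1.015e-07), with 0.73, 0.67 and 0.85 on the slides. CHEK2, the kinase downstream of ATM, read -0.09, 0.007 and 0.07 against -0.84, -0.70 and -0.57, and fell by 0.71 (SE 0.06, adjusted p = 2.573e-07). For either kinase no array of the SRSF2 condition lay within the control range.

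CLSPN, the claspin adaptor of CHEK1, fell by 0.42 (SE 0.15, adjusted p = 0.0328). The CLSPN call was lost without slide 1 (adjusted p = 0.101), without slide 2 (0.0613) and without slide 3 (0.0724). Under spike-in scaling CHEK1 kept its call, and CHEK2 was lower with an adjusted p of 0.0931. ATAD2, a chromatin ATPase with a bromodomain, rose with both probes. Probe A_23_P216068 read 1.52, 1.55 and 1.57 in the control condition and 2.19, 2.25 and 2.46 in the SRSF2 condition, a difference of 0.74 (SE 0.05, adjusted p = 1.339e-07), and the dimmer probe rose by 0.28 (SE 0.06, adjusted p = 0.00101; 0.0886 under spike-in scaling).

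Several probes were tested for 11 of the genes. All probes of a gene rose for 5 genes (ATAD2, FEN1, GINS3, ORC6 and RRM2) and all fell for 2 (CDT1 and POLD1). RFC3 had calls in both directions, MCM10 had none, and FANCD2 and FANCI had calls for some probes only. The RFC3 probes are assigned to different RefSeq transcripts. The called FANCD2 probe is assigned to another transcript than the uncalled ones, while the FANCI probes share 1 transcript. At least 1 probe was called for 36 genes, and 12 genes had no called probe. The median deviation of the brightest probe of each gene from its overall mean was 0.01 to 0.09 on the control arrays. On the arrays of the SRSF2 condition it was -0.12 to 0.006. By slide, the median difference over the genes was -0.13, -0.21 and -0.05, so slide 3 lay nearest to 0.

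The smaller differences rested on counting arrays as replicates. When each pair of like arrays sharing a slide was averaged into 1 value, 15 probes were higher and 15 lower. Over all probes this gave 19.8% higher and 19.2% lower, and higher calls made up 50.7% of all calls, so that the members' calls were as evenly divided as those of all probes in this count. The calls of CDC6, CDT1 (both probes), RFC2, RFC3 (both probes), RFC4, RFC5, LIG1, RRM2 A_24_P234196, TYMS, FANCI (both called probes), MSH6 and CLSPN were lost. After normexp correction, RFC3, RFC5, LIG1 and FANCI A_32_P95729 lost their calls, with adjusted p-values of 0.161 and 0.248 for RFC3, 0.205 for RFC5, 0.329 for LIG1 and 0.29 for FANCI A_32_P95729. In the authors' table of values, CDC6 and CDT1 A_23_P37704 lay just outside the threshold (adjusted p = 0.0627 and 0.0565) and PCNA just inside it (0.043).

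A second list held 115 other genes of replication and repair, of which 112 were tested with 159 probes. In this list 40 probes were higher (25.2%), 55 were lower (34.6%) and 64 were not called. All probes tested gave 29.7% higher and 28.0% lower. Among the other replication genes, 9 of 58 probes were higher (15.5%) and 26 lower (44.8%). The largest fall was that of CHAF1A, the large subunit of the chromatin assembly factor that places histones behind the fork (-0.93, SE 0.05, adjusted p = 1.833e-08). The largest rise was that of the dimmer probe of the primase subunit PRIM2 (0.98, SE 0.16, adjusted p = 1.465e-04), while the other PRIM2 probe was not called at 0.08 (adjusted p = 0.455).

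Among the other recombination and crosslink repair genes, 12 of 40 probes were higher and 12 lower, close to the 29.7% and 28.0% of all probes. RAD54L, a motor protein of homologous recombination, fell by 1.17 (SE 0.05, adjusted p = 2.433e-09). RAD51D, another recombination gene, rose by 1.04 (SE 0.06, adjusted p = 2.579e-08) and by 0.58 with its other, brighter probe. The RAD51D probe with the larger rise was dim, with a control mean of -4.38, and well above background on 5 of the 6 control arrays.

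Among the other excision and mismatch repair genes, 11 of 34 probes were higher (32.4%) and 12 lower (35.3%), beside 29.7% and 28.0% of all probes. Nucleotide excision genes were down-regulated past 2-fold in 3 cases: ERCC2, a helicase of TFIIH, at -1.17 (SE 0.11, adjusted p = 1.739e-06; other probe -0.35), the damage sensor DDB2 at -1.16 (SE 0.08, adjusted p = 5.715e-08), and the scaffold XPA at -1.05 (SE 0.06, adjusted p = 9.24e-09). UNG, the uracil glycosylase of base excision repair, was up-regulated at 1.10 (SE 0.16, adjusted p = 7.887e-05). In the list of end joining and checkpoint genes, 8 of 27 probes were higher (29.6%) and 5 lower (18.5%). WEE1, the kinase that restrains CDK1, rose most (0.81, SE 0.10, adjusted p = 1.382e-05), and ATRIP, the partner of ATR, fell most (-0.75, SE 0.08, adjusted p = 5.918e-06).

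By the percentile scaling, genes of mitosis and of the E2F and RB families stood on the other side of 0 from the replication and repair members (median -0.14). Under spike-in scaling the median of the members turned to 0.07, so this contrast in sign was lost there. Such scaling shifts all probes of an array alike and leaves the distance between the lists as it was. Of 22 mitosis probes, 15 were higher (68.2%) and 3 lower (13.6%), and the median over these genes was 0.30. KIF11, a spindle motor, had the largest rise (0.89, SE 0.07, adjusted p = 3.01e-07, with its other probe not called), and PLK1 the largest fall (-0.55, SE 0.06, adjusted p = 3.933e-06). Of 24 E2F and RB probes, 14 were higher (58.3%) and 4 lower (16.7%), with a median of 0.25. E2F6 rose with 4 probes, by up to 0.90 (SE 0.07, adjusted p = 2.024e-07), and the largest fall was that of E2F4 at -0.48 (SE 0.07, adjusted p = 4.791e-05, with its other probe not called). These lists share their arrays with the 49 genes, and the difference between lists was not tested.

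**Figure D5:**
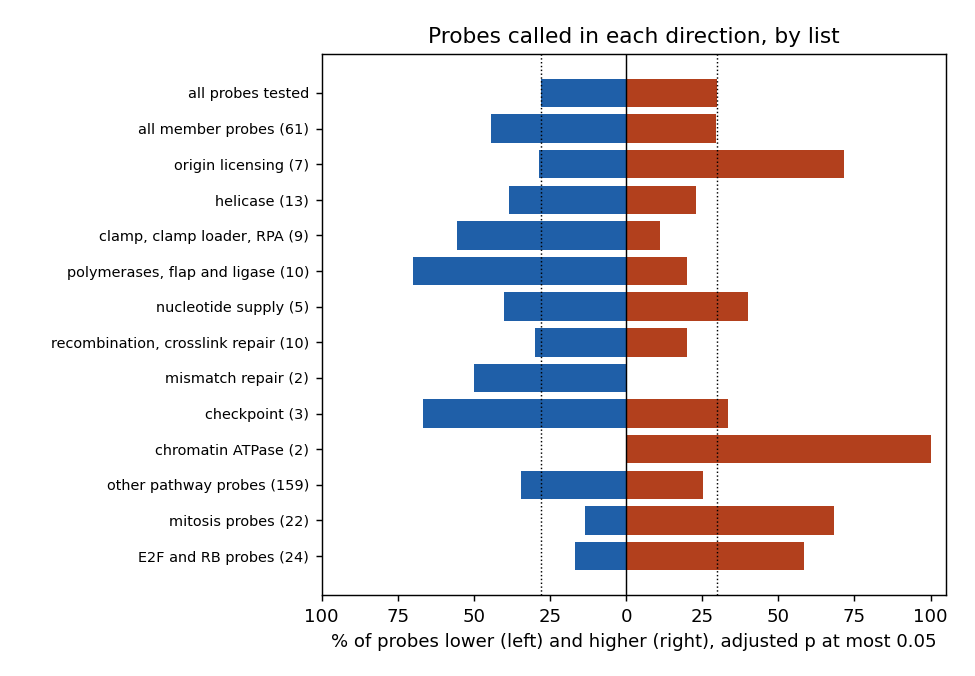
Share of tested probes called lower (left) and higher (right) at an adjusted p of at most 0.05, for all probes tested, the 61 replication and repair probes, each role within them, and 3 other lists, with the number of probes in brackets. Dotted lines mark the shares over all probes tested, 28.0% and 29.7%; polymerase probes reach 70.0% lower and mitosis probes 68.2% higher.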

How the data were processed

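RNA of the H358/Tet-On/SRSF2 clone was hybridised to 12 Agilent 1-colour arrays, 6 per condition, and grouped by the labels. Per the file headers, the authors' scanner files were made with Feature Extraction 10.7.3.1 and hold intensity values after background subtraction. The deposited series table holds log2 values that match those intensities after 75th-percentile scaling and centring of each probe, and it was used as an alternative.

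Spots of a probe were averaged without outlier spots, log2 transformed and scaled to the 75th percentile of the gene probes. A probe was kept if no more than 25% of its values were missing and if, in either condition, 5 or more of the 6 arrays had it well above background (24336 probes). limma 3.58.1 in R 4.3.3 compared the conditions without covariates, two-sided, with Benjamini-Hochberg adjustment over all probes kept, and the script was tested on simulated data. A call is an adjusted p of at most 0.05, and the 2-fold threshold of the methods was counted besides. RefSeq accessions named 23958 of 41000 probes by the table of GRCh38.p14. Python 3.11.15, numpy 2.4.6, pandas 2.3.3 and matplotlib 3.10.9 made the summaries and figures. The number of arrays limits the precision, and 6 arrays against 6 allow an exact permutation p of 0.00216 at the least.

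The members and all lists (other replication and repair genes, mitosis, E2F and RB, and markers of lung epithelium, fibroblasts, leukocytes and endothelium) were chosen with earlier results of these data known. Array values are given for genes past 2-fold, for the gene with the largest rise and fall of each role by its brightest probe, and for genes with calls in opposite directions; the other members are given by their statistics.

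Each slide holds 2 arrays of either condition, and the replicate numbers of the labels were checked as pairs. Deviations from the group means correlated at 0.28 to 0.64 between arrays of the same number, at 0.33 to 0.65 between arrays of different number on the same slide, and at -0.48 to -0.05 between slides (all 6, 6 and 24 array pairs). The numbers therefore pair the arrays through the slide they share. Alternatives changed the scaling, background, filter, flags, test, block and arrays used. The mean spot signal was not used here, so the median spot signal served for the background alternatives.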

Additional observations from a re-analysis of the deposited data

Results flagged for a closer look

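In 10 of 122 groups of 6 arrays, 1 array lay far from the other 5 by Dixon's test, and chance alone would give about 6.1 such groups at 1 in 20. Control replicate 2, which has the lowest 75th percentile of signal of all arrays (795.6), was that array in 7 cases.

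Control replicate 2 was low for RFC2 (1.716, with the other control arrays from 1.836 to 1.893), for POLD1 A_23_P50456 (2.774, others 3.484 to 3.868), for LIG1 (3.173, others 3.734 to 3.831) and for FANCI A_32_P95729 (1.868, others 2.483 to 2.814). It was high for TK1 (7.816, others 7.526 to 7.601), MSH6 (4.949, others 4.805 to 4.831) and CHEK1 (3.201, others 3.04 to 3.1). RPA3 was low on control replicate 6 (3.277, others 3.986 to 4.282). In the SRSF2 condition, POLA1 was high on replicate 6 (2.012, others 1.718 to 1.792) and PRIM1 was low on replicate 2 (1.795, others 1.865 to 1.901).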

How the results depend on the processing

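Of the 45 called probes, 18 kept their call under every alternative (13 higher, 5 lower), and 29 under every one except spike-in scaling; FANCD2 A_23_P345678 was removed by the filter on 9 of 12 arrays. Spike-in scaling left 6 probes lower, gave 5 at least 2-fold higher and turned the median log2 fold change of member genes to 0.0679. Relative to all probes the median stayed at -0.1514, because this scaling shifts all probes of an array alike. The other settings gave medians from -0.1717 to -0.0884. Normexp correction left 1 probe at least 2-fold higher and 2 at least 2-fold lower, and signals without background subtraction left 1 at least 2-fold higher. The mean of 2 arrays as 1 replicate left 15 probes lower, and a 1.5-fold threshold gave 10 higher and 11 lower. The share over all probes at 1.5-fold was not counted. With the replicate number as a block, which pairs arrays of a shared slide, 20 probes were higher and 29 lower. Calls over all probes grew as well with this block, from 29.7% to 34.1% higher and from 28.0% to 31.7% lower. No call of the members was lost and 4 were added (PCNA, RPA1, RRM1 and FANCD2 A_32_P24165). Leaving out a slide gave 15 to 18 higher and 19 to 24 lower. Leaving out control replicate 2, an alternative chosen after seeing the data, gave 19 and 26, beside 29.7% and 28.6% of all probes.

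The sign of 2 called probes turned under spike-in scaling, RFC3 A_32_P197016 (0.0262) and RFC5 (0.0598), where the uncalled MCM10 (0.14 and 0.1879), RPA1 (0.0759), BRCA2 (0.1942), FANCD2 A_23_P143994 (0.1905), FANCD2 A_32_P24165 (0.0484) and BLM (0.1905) turned too. The other turned signs belong to uncalled probes near 0. MCM7 gave -0.0078 by the array median, -0.0598 by quantiles, -0.1276 by normexp, -0.0581 without background subtraction, -0.0689 in the authors' table, -0.0696 with outlier spots, -0.019 with the slide as a block, -0.0245 with the replicate block, -0.022 with means of 2 arrays, and -0.0097, -0.0126 and -0.0098 without slide 1, slide 2 and control replicate 2. FANCI A_24_P902509 gave -0.021, -0.0074, -0.0046, -0.0015, -0.0041 and -0.0048 under the first 6 of these settings and -0.0159, -0.0377 and -0.0206 under the last 3. BLM gave 0.0068 by quantiles, 0.0307 by normexp, 0.0194 without background subtraction and 0.0069 without slide 2. BRCA2 gave 0.0784 with outlier spots, 0.0697 without slide 1 and 0.0032 without control replicate 2. FANCD2 A_23_P143994 gave 0.0162 by normexp, 0.016 without background subtraction and 0.0087 without control replicate 2. MCM10 A_24_P412088 gave 0.035 without slide 2, and RPA3 gave -0.0889 without slide 3. The causes were not tested. Signals near background limit the fold changes of BRIP1, FANCD2 A_23_P345678 and GINS3 A_24_P159323.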
